A study of Mus musculus with 42 samples.

Results

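The genes described here are 40 transcripts of brain vessels, 30 typical of endothelial cells and 10 of mural cells, that is pericytes and smooth muscle, looked up by gene name in microglia sorted from mouse brain. All 40 were present among the 19151 genes of the deposited table, and 39 of them reached a mean of 7 in 1 group or more, 29 endothelial and 10 mural. The transcription factor gene Erg was the exception, with its highest group mean at 6.92 in WT 4M Ki67- libraries, while Sox17 at 7.03, Sox18 at 7.04 and Cdh5 at 7.14 lay just inside the threshold. The 42 libraries came from male C57BL/6 mice, either APP/PS1 transgenics, a model of familial Alzheimer's disease that deposits amyloid, or their wild-type (WT) littermates, at 4, 6 and 12 months (4M, 6M, 12M). Brains of both genotypes were perfused, cells from a Percoll gradient were fixed, and CD11b+/CD45+ cells with a nucleus were sorted into proliferating (Ki67+) and non-proliferating (Ki67-) microglia, with up to 400 cells a library. Ki67 is an intranuclear protein of cycling cells. The Ki67+ groups held 5, 2 and 4 WT libraries and 4, 2 and 4 APP/PS1 libraries at 4, 6 and 12 months, and the Ki67- groups held 5, 3 and 3 WT and 4, 2 and 4 APP/PS1 libraries. The labels do not say that libraries of 1 group came from separate mice, so p-values measure the spread between libraries, which may be technical.

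In the brain, endothelial cells form the blood-brain barrier. They seal their borders with claudin 5, occludin and cadherin junctions, carry nutrients through dedicated transporters such as Slc2a1 and Mfsd2a, and pump drugs out through P-glycoprotein. Vascular endothelial growth factor and angiopoietin receptors maintain them, pericytes recruited through the receptor Pdgfrb wrap the capillaries, and smooth muscle with a contractile actin apparatus wraps the arterioles. Neither cell type carries CD11b, the integrin used in the sort, although Pecam1, Eng, Ets1, Bsg, Pltp and Slc2a1 are also expressed in leukocytes or many other cells.

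Values are on a log2-like scale made by the authors, on which a gene with hardly any reads sits near 6.37, the lowest mean of any gene over all libraries. The values are not scaled to transcript length, so each gene is compared with itself only, and differences understate change for genes near the bottom of the scale. In each group, 9.39% to 20.5% of the values of all genes also fell under that bottom. Differences that rest on such values can overstate change. Microglial identity was plain in every group: group means ran from 12.35 to 14.53 for Cx3cr1, from 12.90 to 14.31 for P2ry12 and from 12.58 to 14.36 for Tmem119. Read depth is unknown, since the table holds no counts. The WT 6M Ki67+ libraries stood apart, with a mean over 14 microglial genes of 12.45 against 13.38 to 13.90 in the other Ki67+ groups. The 3 WT 12M Ki67- libraries, and replicates 1 and 2 of WT 4M Ki67-, were nearly identical to one another, with median absolute differences over all genes of 0.0171 to 0.0449 against 0.0834 to 0.307 in the other 55 pairs of libraries of 1 group. Comparisons that use them are also given with each such set counted as 1 library.

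Most of the vascular transcripts that differed were higher in proliferating than in non-proliferating microglia, with 5 exceptions, all endothelial. Averaged over the 6 strata of genotype and age, 21 of the 39 genes were higher in Ki67+ libraries and 5 were lower (limma, adjusted p under the FDR of 0.05), where 34.5% of all genes tested were higher and 29.7% lower. Among the 10 mural genes 8 were higher and 0 lower, with a median difference of 1.12, and among the 29 endothelial genes 13 were higher and 5 lower, with a median of 0.28. The median over all genes tested was 0.04. Of the mural genes, Rgs5, Vtn, Kcnj8, Higd1b, Acta2, Tagln and Myl9 had every Ki67- group mean under 7. They passed the level filter through Ki67+ groups only, so a fall had little room to show. The counts of 8 higher and 0 lower mural genes are thus partly set by the filter. Among endothelial genes, Cdh5, Esam, Emcn, Tek, Sox17, Sox18 and Abcb1a also passed through Ki67+ groups only. In libraries of sorted cells, fewer cells of a type and less RNA per cell cannot be told apart. The 5 genes that were lower were Ly6a, Pecam1, Kdr, Sox17 and Bsg, and the largest rises were those of Itm2a, Myl9, Cldn5, Cspg4, Egfl7 and Acta2. Of the 21 Ki67- values, 16 of Cspg4, 13 of Egfl7 and 13 of Esam lay under the bottom of the scale. So did 16 of Tagln, 7 of Cldn5, 7 of Myl9 and 6 of Itm2a, while Acta2 had 0. Apart from that of Acta2, the sizes of these rises can thus be overstated. Without the 6M libraries, which were doubted after their levels were seen, 26 genes were higher and 3 lower (background 34.8% and 27.8%), with a median of 0.70. Without WT 6M alone they were 24 and 3 (33.2% and 26.4%). The averages with and without 6M called 24 genes in the same direction. Flt1, Vwf, Slco1c1, Abcb1a and Kcnj8 joined the higher genes without 6M, with differences of 0.71, 0.44, 0.60, 0.57 and 0.44, and Sox17 and Bsg were no longer called, with differences of -0.25 and -0.13. Among genes called with and without 6M, the difference of Ly6a came to -0.93 without 6M, that of Acta2 to 1.02 and that of Tagln to 0.37, while Emcn came to 0.65, Ets1 to 0.75, Ly6c1 to 1.26 and Pltp to 0.84, each over 1.5 times larger or smaller than over 6 strata.

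**Figure D1:**
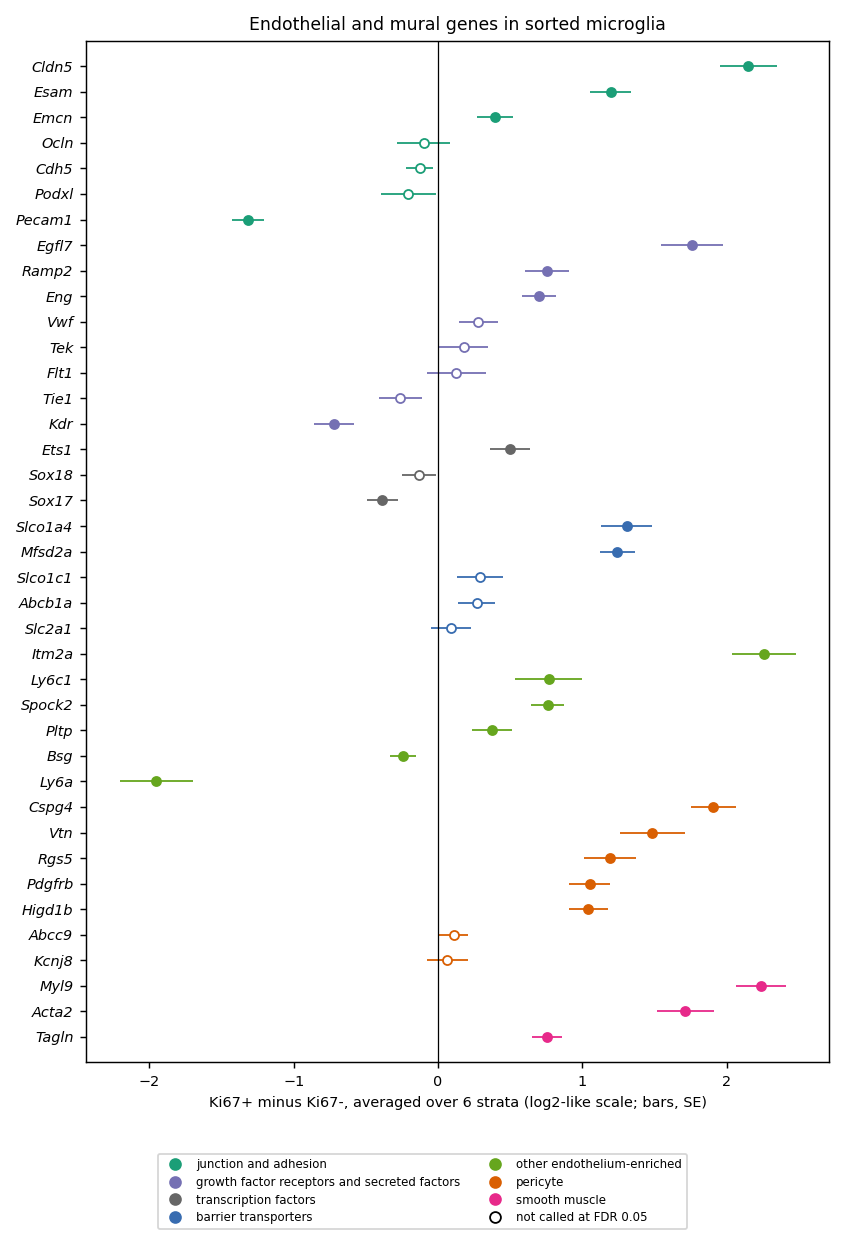
Difference between Ki67+ and Ki67- libraries for the 39 vascular genes tested, averaged over 6 strata of genotype and age, on the log2-like scale (x axis), with 1 gene a row grouped by role and bars for the SE; filled points were called at an FDR of 0.05. The mural rows at the bottom all lie to the right of 0, from 0.06 for Kcnj8 to 2.24 for Myl9, while endothelial genes run from -1.95 for Ly6a to 2.26 for Itm2a.

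The junction and adhesion genes split between large rises and a large fall. Cldn5, the main claudin of endothelial tight junctions, ran from 7.33 through a median of 8.99 to 9.95 in the 21 Ki67+ libraries, and from 5.60 through 6.47 to 7.59 in the 21 Ki67- libraries. Of the Ki67+ libraries, 20 lay above every Ki67- library. The share of all genes tested that separate this far was not counted, nor was it for such counts in other genes below. The averaged difference in Cldn5 was 2.15 ± 0.20 (SE; adjusted p = 5.02e-10), and it was called in 5 of 6 strata; in the remaining one, APP/PS1 6M, it was 1.59 ± 0.60 (adjusted p = 0.105). Pecam1, the adhesion molecule CD31 of endothelium, platelets and leukocytes, moved the other way. Its Ki67+ values ran from 6.88 through 7.85 to 9.02 and its Ki67- values from 7.93 through 9.25 to 9.68, and 14 Ki67+ libraries lay below every Ki67- library. The Pecam1 difference averaged -1.32 ± 0.11 (adjusted p = 1.28e-10) and was called lower in 5 strata, from -0.70 in APP/PS1 12M to -2.07 in WT 6M and in WT 12M.

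Esam, an adhesion molecule of endothelial tight junctions, rose by 1.20 ± 0.14 (adjusted p = 5.77e-08), with Ki67+ values of 6.00 through 7.94 to 9.20 and Ki67- values of 5.78 through 6.23 to 7.50, and 15 Ki67+ libraries lay above every Ki67- library. Emcn, a sialomucin of the endothelial surface, rose by 0.39 ± 0.12 (adjusted p = 0.00764). Its Ki67- libraries were held within 6.36 to 6.70, at the bottom of the scale, and its Ki67+ libraries spread on both sides of that, from 5.92 to 8.16. Cdh5, the VE-cadherin of adherens junctions and a gene defining for endothelium, stayed near the bottom of the scale in both states, with medians of 6.78 and 6.58 and a difference of -0.13 ± 0.09 (adjusted p = 0.245), which came to 0.16 without 6M (adjusted p = 0.164). The occludin gene Ocln (-0.10 ± 0.18, adjusted p = 0.65) and the podocalyxin gene Podxl (-0.21 ± 0.19, adjusted p = 0.347) were not called either. Of the 7 junction and adhesion genes, 3 were thus higher, 1 was lower and 3 were not called (background 34.5% higher and 29.7% lower). Esam, Emcn and Cdh5 passed the level filter through Ki67+ groups only.

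The Cldn5 gene lies at chr16:18776847-18778262 on the plus strand (GRCm38). The stretch from 250 to 51 bases before its RefSeq start, chr16:18776597-18776796 of GRCm38.p6, is shown because Cldn5 is the junction gene with the largest rise and because endothelial promoters are commonly read for GGAA, the core letters bound by ETS factors such as Erg and Ets1. No GGAA or its reverse complement TTCC was found in the 300-base window around that start on either strand, so nothing is in capitals.
Cldn5: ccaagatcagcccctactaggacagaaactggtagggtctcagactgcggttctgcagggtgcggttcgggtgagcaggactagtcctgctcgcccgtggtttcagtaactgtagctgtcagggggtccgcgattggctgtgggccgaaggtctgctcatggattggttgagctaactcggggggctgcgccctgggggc

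**Figure D2:**
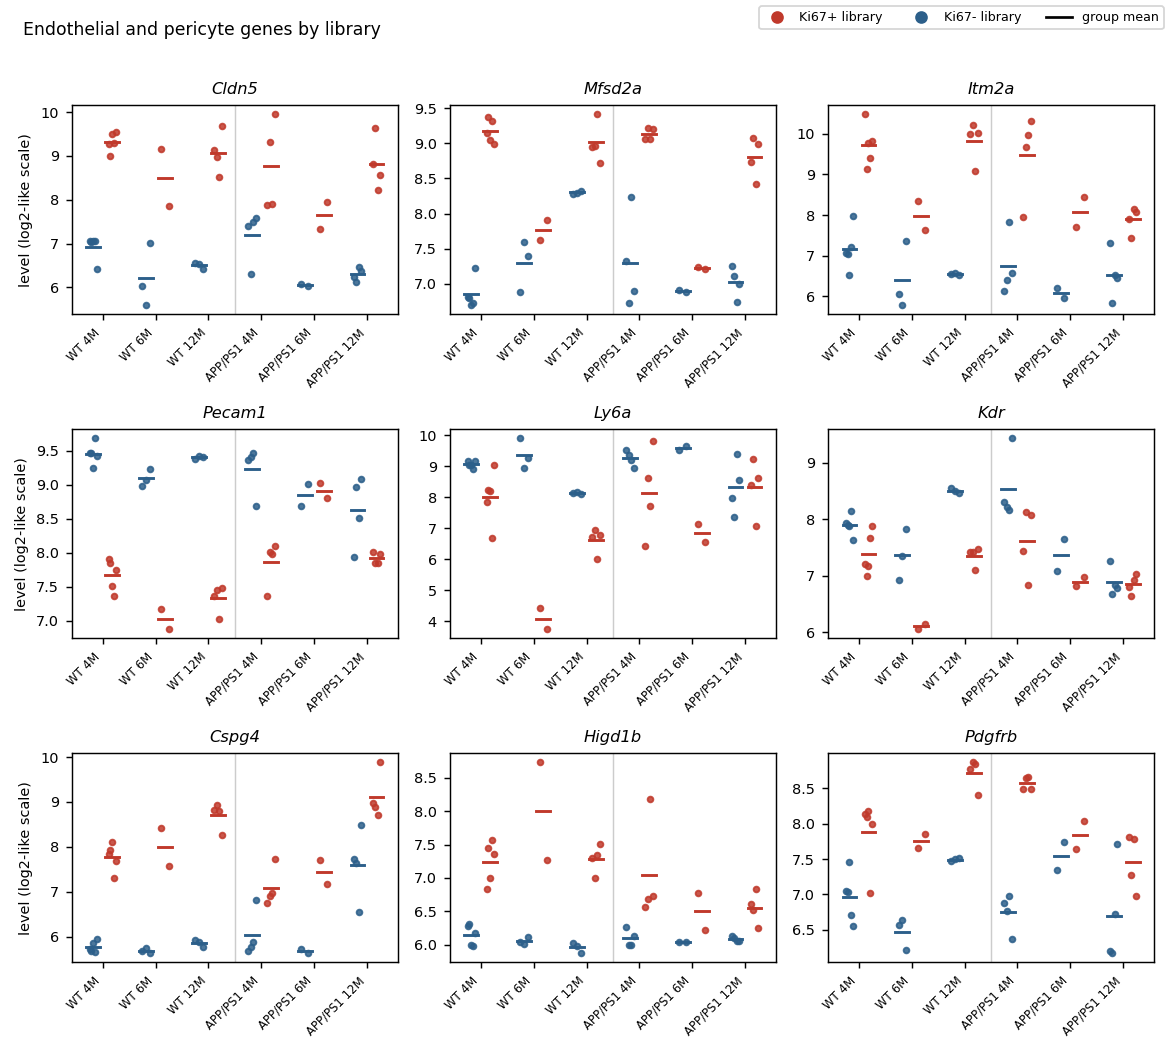
Level of 9 endothelial and pericyte genes on the log2-like scale (y axis) in each of the 42 libraries, by genotype and age (x axis); points are libraries, red Ki67+ and blue Ki67-, and lines are group means. Cldn5, Mfsd2a, Itm2a, Cspg4, Higd1b and Pdgfrb show red group means above blue in each stratum. Pecam1 shows red means below blue in each stratum other than APP/PS1 6M (8.81 and 9.02 against 8.69 and 9.01). In Ly6a the WT 6M Ki67+ libraries fall to 4.42 and 3.76, under the bottom of the scale.

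Of 8 receptors and secreted factors 3 rose, 1 fell and 4 were not called (background 34.5% higher and 29.7% lower). Egfl7, a secreted matrix protein of endothelium and the host gene of a microRNA, rose by 1.76 ± 0.21 (adjusted p = 7.12e-08), with values of 6.76 through 8.24 to 9.14 in Ki67+ and 5.39 through 6.20 to 7.71 in Ki67- libraries. Ramp2, the adrenomedullin co-receptor, rose by 0.75 ± 0.15 (adjusted p = 0.000112), and Eng, a co-receptor of the TGF-beta family, by 0.70 ± 0.12 (adjusted p = 1.03e-05). Eng was well above the bottom of the scale in both states, at 9.37 through 10.08 to 10.89 in Ki67+ and 7.93 through 9.35 to 10.47 in Ki67- libraries, and these ranges overlapped widely. Kdr, the main signalling receptor for vascular endothelial growth factor, fell by 0.72 on average (SE 0.14, adjusted p = 5.65e-05), with values of 6.06 through 7.09 to 8.13 in Ki67+ and 6.68 through 7.88 to 9.43 in Ki67- libraries. It was called lower in WT 6M, WT 12M and APP/PS1 4M, and the WT 12M call was lost with near-identical libraries counted as 1 (adjusted p = 0.0786). Flt1, the decoy receptor of the same ligand, overlapped almost wholly between states, at 5.54 through 8.72 to 9.41 against 6.92 through 7.77 to 9.94, with an average of 0.13 ± 0.21 (adjusted p = 0.604) that came to -0.032 without WT 6M Ki67+ replicate 1. Within strata Flt1 was higher in WT 4M by 1.08 ± 0.40 and in WT 12M by 1.53 ± 0.48, and stood at -0.84 in WT 6M and -1.25 in APP/PS1 6M, neither of which was called. With near-identical libraries counted as 1 the WT 12M rise of Flt1 was not called (adjusted p = 0.117). Vwf, the clotting factor stored by endothelium, differed by 0.28 ± 0.13 (adjusted p = 0.0719), and was called higher without APP/PS1 4M Ki67+ replicate 1 (adjusted p = 0.0208), APP/PS1 12M Ki67+ replicate 3 (0.0331) or WT 6M Ki67- replicate 3 (0.0369). The angiopoietin receptor genes Tek (0.18 ± 0.17, adjusted p = 0.365) and Tie1 (-0.26 ± 0.15, adjusted p = 0.121) were not called.

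The endothelial transcription factors were low, apart from Ets1, which lymphocytes and other cells also express. Ets1 ran from 7.87 through 9.34 to 10.04 in Ki67+ and from 8.19 through 8.65 to 9.66 in Ki67- libraries and rose by 0.50 ± 0.14 (adjusted p = 0.00255), with calls in WT 4M and WT 12M, the latter lost with near-identical libraries counted as 1 (adjusted p = 0.0587). Sox17 and Sox18, factors of endothelial and arterial identity, lay near the bottom of the scale in both states, with Ki67+ medians of 6.49 and 6.59. Sox17 was lower in Ki67+ libraries by -0.39 ± 0.11 (adjusted p = 0.00286), with 13 Ki67+ libraries below every Ki67- library, 7 of them under the bottom of the scale, and Sox18 differed by -0.13 ± 0.12 (adjusted p = 0.341). Erg was not tested, and its libraries ran from 5.83 to 7.07 in Ki67+ and from 6.34 to 7.27 in Ki67- microglia.

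Of the barrier transporters, 2 of 5 rose and 0 fell (background 34.5% higher and 29.7% lower). Mfsd2a, which carries lysophospholipids with docosahexaenoic acid into the brain, ran from 7.22 through 8.99 to 9.41 in Ki67+ and from 6.70 through 7.00 to 8.32 in Ki67- libraries, and 17 Ki67+ libraries lay above every Ki67- library. Its averaged difference was 1.24 ± 0.12 (adjusted p = 1.3e-09), and it was largest in WT 4M at 2.32 ± 0.23 and smallest in APP/PS1 6M at 0.32 ± 0.37, where it was not called. Slco1a4, an organic anion transporter of the barrier, ran from 7.05 through 8.05 to 9.11 in Ki67+ and from 6.25 through 6.65 to 7.95 in Ki67- libraries. It rose by 1.31 ± 0.17 on average (adjusted p = 3.51e-07), and by 1.22 to 1.85 in the 5 strata in which it was called, WT 6M being the other at 0.75 ± 0.49. With near-identical libraries counted as 1, Slco1a4 was not called in WT 12M (adjusted p = 0.0858). Slco1c1, the neighbouring thyroid hormone transporter 235 kb away on chromosome 6 and also an astrocyte gene, was not called on average (0.29 ± 0.16, adjusted p = 0.115). It was higher in WT 4M by 0.94 ± 0.31 and in APP/PS1 12M by 1.09 ± 0.35, and lower in WT 6M by -1.44 ± 0.45. The P-glycoprotein gene Abcb1a (0.27 ± 0.13, adjusted p = 0.0674), whose near-identical copy Abcb1b can share reads, and the glucose transporter gene Slc2a1 (0.09 ± 0.14, adjusted p = 0.59) were not called.

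The Slco1a4 gene lies at chr6:141805440-141856199 on the minus strand (GRCm38). Its upstream stretch, chr6:141856271-141856470 of GRCm38.p6, is shown because Slco1a4 was called in more strata than the other transporters and because it holds the letters ACAAT, the core that SOX factors such as Sox17 and Sox18 recognise. Capitals mark ACAAT or its reverse complement ATTGT, at 208, 144 and 137 bases before the RefSeq start.
Slco1a4: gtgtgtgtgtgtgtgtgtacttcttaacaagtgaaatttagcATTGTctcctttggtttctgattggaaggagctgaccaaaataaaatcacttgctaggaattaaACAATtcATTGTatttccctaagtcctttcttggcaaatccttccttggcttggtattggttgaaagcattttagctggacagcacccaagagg

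The 6 other genes enriched in endothelium held both extremes of the set. Itm2a, a membrane protein of brain endothelium and chondrocytes, ran from 7.44 through 9.14 to 10.48 in Ki67+ and from 5.78 through 6.52 to 7.98 in Ki67- libraries, a difference of 2.26 ± 0.22 (adjusted p = 1.69e-09). It was higher in 5 strata, by 1.37 to 3.29, and stood at 1.98 ± 0.68 in APP/PS1 6M. Ly6a, the surface protein Sca-1 of endothelium and haematopoietic progenitors, which is induced by interferon, went down instead, by -1.95 ± 0.25 (adjusted p = 2.28e-07). Its Ki67+ values spread from 3.76 through 7.13 to 9.79, over more of the scale than any other gene here, and its Ki67- values from 7.36 through 9.04 to 9.89. Ly6a was called lower in WT 6M (-5.27 ± 0.71), WT 12M (-1.52 ± 0.60) and APP/PS1 6M (-2.73 ± 0.78), and in APP/PS1 12M it stood at -0.01 ± 0.55. Its WT 6M Ki67+ values, 4.42 and 3.76, lay under 6.37, the bottom of the scale. The -5.27 is thus larger than a fall to that bottom would give. The WT 12M call of Ly6a was lost with near-identical libraries counted as 1 (adjusted p = 0.211), and its average without 6M was -0.93 ± 0.27 (adjusted p = 0.00478). Its relative Ly6c1, 46 kb away on chromosome 15 and expressed by endothelium and monocytes, rose by 0.77 ± 0.23 (adjusted p = 0.00509), and since sequences of the Ly6 family are alike, reads of these 2 genes may have been split uncertainly. Spock2, a matrix proteoglycan, rose by 0.76 ± 0.11 (adjusted p = 1.88e-06), and Pltp, the phospholipid transfer protein, by 0.37 ± 0.14 (adjusted p = 0.0202). Bsg, basigin, was high in both states with a median of 12.19 in each, and fell by 0.24 on average (SE 0.09, adjusted p = 0.0215).

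Pericyte genes were near the bottom of the scale in Ki67- libraries and rose in Ki67+ libraries, 5 of 7 being called higher (background 34.5%). Rgs5, Vtn, Kcnj8 and Higd1b passed the level filter through Ki67+ groups only, so this count is partly set by the filter. Cspg4, the proteoglycan NG2 of pericytes and of oligodendrocyte precursors, ran from 6.74 through 7.92 to 9.88 in Ki67+ libraries and from 5.64 through 5.78 to 8.48 in Ki67- libraries. Its difference of 1.91 ± 0.16 (adjusted p = 7.77e-11) was called in all 6 strata, from 1.04 ± 0.34 in APP/PS1 4M to 2.84 ± 0.37 in WT 12M, and 16 of the 21 Ki67- libraries lay under the bottom of the scale. Of the 5 Ki67- libraries above it, 4 were those of APP/PS1 12M, at 7.73, 7.65, 6.56 and 8.48, and 1 was APP/PS1 4M replicate 4, at 6.82. Higd1b, a mitochondrial membrane protein gene that marks brain pericytes, was under the bottom of the scale in all 21 Ki67- libraries, at 5.88 to 6.30. Its Ki67+ values ran from 6.22 through 7.00 to 8.73, 19 of them above every Ki67- value, and the difference was 1.04 ± 0.14 (adjusted p = 2.87e-07). Pdgfrb, the receptor that recruits pericytes, rose by 1.05 ± 0.14 (adjusted p = 4.41e-07), at 6.98 through 8.09 to 8.87 against 6.18 through 6.88 to 7.75. Rgs5, a G protein signalling regulator, rose by 1.19 ± 0.18 (adjusted p = 2.68e-06), and Vtn, vitronectin, by 1.48 ± 0.22 (adjusted p = 2.48e-06), each with 18 Ki67+ libraries above all Ki67- libraries. Kcnj8 and Abcc9, which encode the pore and the regulatory subunit of the vascular ATP-sensitive potassium channel and lie 16.2 kb apart on chromosome 6, were not called (0.06 ± 0.14, adjusted p = 0.708, and 0.11 ± 0.10, adjusted p = 0.353).

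The 3 smooth muscle genes all rose, where 34.5% of all genes tested did. All 3 passed the level filter through Ki67+ groups only, so this count is partly set by the filter. Myl9, the regulatory light chain of smooth muscle myosin, ran from 7.41 through 8.42 to 11.07 in Ki67+ and from 6.25 through 6.47 to 7.16 in Ki67- libraries, and was the only gene of the set in which all 21 Ki67+ libraries lay above all 21 Ki67- libraries. How many of all genes tested separate in this way was not counted. The difference in Myl9 was 2.24 ± 0.17 (adjusted p = 1.9e-11), and it was called in all 6 strata, from 1.34 ± 0.37 in APP/PS1 12M to 4.00 ± 0.48 in WT 6M. Acta2, smooth muscle alpha-actin, rose by 1.71 ± 0.20 (adjusted p = 3.32e-08), with 15 Ki67+ libraries above every Ki67- library, and its reads may be shared with other actin genes, as those of Myl9 may be with other light chain genes. Tagln, the actin-binding protein SM22, rose by 0.76 ± 0.10 (adjusted p = 3.78e-07), with values of 6.13 through 6.76 to 8.33 in Ki67+ and 6.08 through 6.23 to 6.62 in Ki67- libraries. The stratum calls of Tagln were those at 6 months alone, in WT and in APP/PS1. Without 6M the averages were 1.68 ± 0.18 for Myl9 (adjusted p = 1.83e-08), 1.02 ± 0.21 for Acta2 (adjusted p = 0.000196) and 0.37 ± 0.11 for Tagln (adjusted p = 0.00463), all still called higher.

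The Myl9 gene lies at chr2:156775420-156781658 on the plus strand (GRCm38), and the stretch from 250 to 51 bases before its RefSeq start, chr2:156775214-156775413 of GRCm38.p6, is shown because smooth muscle promoters commonly hold the CArG box bound by serum response factor. This motif was searched after the values were seen. Capitals mark the 1 match, at 161 bases before the start.
Myl9: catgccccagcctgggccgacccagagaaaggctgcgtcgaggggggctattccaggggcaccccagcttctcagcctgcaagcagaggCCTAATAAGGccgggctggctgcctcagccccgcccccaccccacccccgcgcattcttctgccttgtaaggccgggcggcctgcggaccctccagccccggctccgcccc

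**Figure D3:**
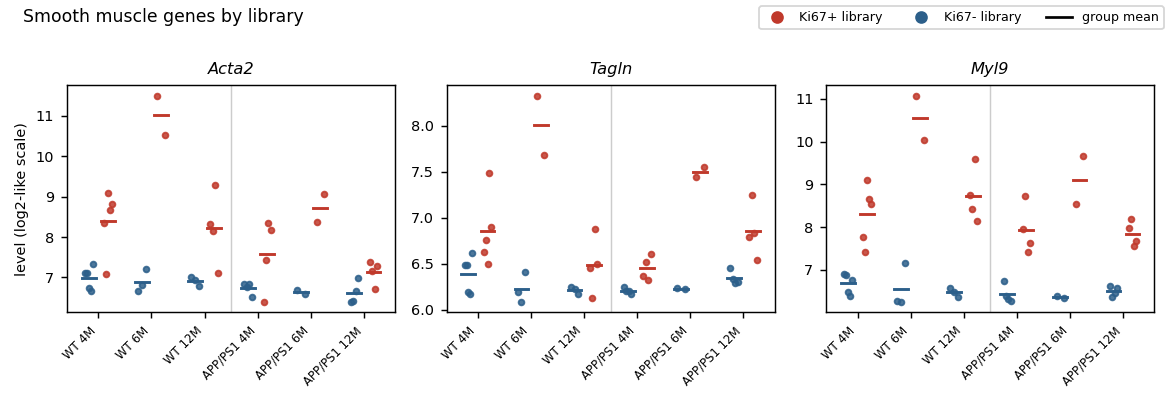
Level of Acta2, Tagln and Myl9 on the log2-like scale (y axis) in each of the 42 libraries, by genotype and age (x axis); points are libraries, red Ki67+ and blue Ki67-, and lines are group means. Ki67- libraries lie within 6.40 to 7.33 for Acta2, 6.08 to 6.62 for Tagln and 6.25 to 7.16 for Myl9, and the WT 6M Ki67+ libraries are the highest in each panel, at 10.54 and 11.50 for Acta2.

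The number of vascular genes called differed between the 6 strata, as did that of all genes. In WT 4M 23 of 39 were higher and 1 lower (background 19.3% and 14.5%), and in WT 12M 17 were higher and 4 lower (26.2% and 20.1%). In APP/PS1 15 were higher and 2 lower at 4M (12.3% and 9.24%), 5 higher and 1 lower at 6M (5.21% and 2.6%), and 12 higher and 1 lower at 12M (10.6% and 7.24%). In WT 6M 10 were higher and 10 lower (17.8% and 19%). Genes that passed the level filter through Ki67+ groups only enter these counts, which are thus partly set by the filter. Genes called higher in all 6 strata were Cspg4 and Myl9, 5.13% of the set where 1.68% of all genes tested were so called, and Cldn5, Slco1a4 and Itm2a were higher in 5. Esam, Egfl7, Mfsd2a, Rgs5, Pdgfrb, Vtn, Higd1b and Acta2 were higher in 4, Pecam1 was lower in 5, and Kdr and Ly6a were lower in 3. With near-identical libraries counted as 1, the WT 12M count came to 8 higher, namely Cldn5, Esam, Eng, Itm2a, Spock2, Cspg4, Higd1b and Myl9, and 1 lower, Pecam1, and the other 5 strata and the average had the same counts as before. The WT 12M calls of Kdr, Sox17 and Ly6a, and of Slco1a4, Egfl7, Mfsd2a, Rgs5, Pdgfrb, Vtn and Acta2, are thus among those lost. In APP/PS1 6M the count of 6 came to 0 without APP/PS1 6M Ki67+ replicate 2, 1 without APP/PS1 6M Ki67- replicate 1, and 2 without replicate 1 of Ki67+ or replicate 2 of Ki67-. In WT 6M the count of 20 came to 11 without WT 6M Ki67+ replicate 2.

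At 6 months the 3 smooth muscle genes were all higher in proliferating WT microglia, while endothelial genes were called in both directions. In WT 6M the Ki67+ libraries were higher than the Ki67- libraries in 7 of 10 mural genes and lower in 0. Of 29 endothelial genes 3 were higher and 10 lower (background 17.8% and 19%). For mural genes that reached a mean of 7 in Ki67+ groups only, a fall had little room to show. The counts of 7 higher and 0 lower mural genes are thus partly set by the filter. Acta2 read 11.50 and 10.54 in the WT 6M Ki67+ libraries against 6.67, 6.81 and 7.22 in Ki67- libraries, a difference of 4.12 ± 0.56 (adjusted p = 3.34e-06). Myl9 read 11.07 and 10.03 against 6.27, 6.25 and 7.16. The WT 6M Ki67+ libraries thus lay above all other libraries in both genes. Ly6a, by contrast, read 4.42 and 3.76 against 9.89, 8.93 and 9.26, with the WT 6M Ki67+ values under the bottom of the scale. Against WT 4M Ki67+, a comparison added after the 6M levels were seen, 3 genes were higher in WT 6M Ki67+, Acta2 by 2.62 ± 0.51, Myl9 by 2.26 ± 0.44 and Tagln by 1.15 ± 0.26, and 20 were lower (background 9.76% and 16.3%). That count of 23 came to 9 without WT 6M Ki67+ replicate 2. WT 6M Ki67+ had the lowest mean of the 6 Ki67+ groups for 18 of the 29 endothelial genes and the highest for 4 of the 10 mural genes.

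In APP/PS1 Ki67+ libraries, 2 genes were higher at 6M than at 4M, Pecam1 by 1.05 ± 0.30 and Tagln by 1.04 ± 0.27, and 6 were lower, namely Cdh5, Esam, Slco1c1, Abcb1a, Mfsd2a and Ly6c1 (background 6.47% and 7.11%). Mfsd2a there read 7.24 and 7.22 at 6M against 9.06, 9.21, 9.06 and 9.21 at 4M. The count of 8 came to 3 without APP/PS1 6M Ki67+ replicate 1 and 2 without replicate 2. In Ki67- libraries limma called 0 genes between 6M and 4M in either genotype (background 0.0671% in each direction in WT, and 0.114% higher and 0.0671% lower in APP/PS1), with 0 higher and 1 lower in WT and 1 higher and 6 lower in APP/PS1 at an unadjusted p under 0.05. Other cell types' genes moved with the 6M Ki67+ libraries. The mean over 12 oligodendrocyte genes was 11.05 in WT 6M Ki67+ and 11.96 in APP/PS1 6M Ki67+ libraries against 7.95 to 8.89 in the other Ki67+ groups, while WT 6M Ki67- libraries stood at 9.91 (8.84 to 10.89, the highest of them above 1 of the WT 6M Ki67+ libraries) and the other Ki67- groups at 8.43 to 8.93. In addition, 9 of 12 astrocyte genes were lower at 6M than at 4M in WT Ki67+ and 8 of 12 in APP/PS1 Ki67+, and 13 of 14 microglial genes were lower in WT Ki67+. Of all genes tested, 16.3% were lower in WT Ki67+ and 7.11% in APP/PS1 Ki67+. In WT 6M Ki67+ libraries 25 of the 80 values of the 40 vascular genes lay under the bottom of the scale, where 20.5% of the values of all genes did. The part of these shifts in the vascular values was not tested.

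Genotype was compared within each Ki67 state and age, to ask whether the amyloid model changed these transcripts. At 4M limma called 0 of the 39 genes in Ki67+ libraries (background 0.0268% higher and 0% lower) and 0 in Ki67- libraries (0% in either direction), with 1 higher and 3 lower, and 2 higher and 0 lower, at an unadjusted p under 0.05. In Ki67- libraries at 6M 0 were called (0.0469% and 0.0134%), with 2 higher and 0 lower at an unadjusted p under 0.05. In Ki67+ libraries at 6M 6 were higher in APP/PS1 and 2 lower (6.95% and 2.92%). Pecam1 read 9.02 and 8.81 in APP/PS1 against 7.18 and 6.88 in WT, a difference of 1.89 ± 0.34 (adjusted p = 0.000774). Ly6a read 7.13 and 6.57 against 4.42 and 3.76 (2.76 ± 0.78, adjusted p = 0.0228), and Slco1c1 8.76 and 8.68 against 6.98 and 6.93 (1.76 ± 0.49, adjusted p = 0.021). Podxl (1.89 ± 0.58), Pltp (1.34 ± 0.42) and Bsg (0.92 ± 0.28) were the other genes higher in APP/PS1. The WT values of Ly6a and Podxl lay under the bottom of the scale, so the sizes of these differences can be overstated. Acta2 was lower, at 8.36 and 9.06 against 11.50 and 10.54 (-2.31 ± 0.61, adjusted p = 0.015), as was Higd1b, at 6.77 and 6.22 against 8.73 and 7.28 (-1.51 ± 0.42, adjusted p = 0.0217). The groups did not overlap in any of these 5 named pairs of values. This adds little, since the genes were picked for their low p and 2 libraries are set against 2. The count of 8 came to 5 and 3 without WT 6M Ki67+ replicate 1 or 2, and to 1 and 3 without APP/PS1 6M Ki67+ replicate 1 or 2, and of the 5 genes with printed values Pecam1 stayed called without each of them. In the same comparison 11 of 14 microglial genes were higher in APP/PS1, with a median of 1.61, and their part in the vascular values was not tested.

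At 12 months proliferating APP/PS1 microglia had less of 4 vascular transcripts than proliferating WT microglia, and more of 1 (background 5.34% lower and 4.43% higher). Itm2a read 7.91, 7.44, 8.16 and 8.08 in APP/PS1 against 9.99, 10.22, 9.09 and 10.03 in WT, a difference of -1.93 ± 0.48 (adjusted p = 0.0119). Pdgfrb read 7.82, 7.27, 7.79 and 6.98 against 8.77, 8.87, 8.85 and 8.40 (-1.26 ± 0.31, adjusted p = 0.0116). Spock2 (-0.97 ± 0.25, adjusted p = 0.0134) and Eng (-0.93 ± 0.25, adjusted p = 0.0215) were lower as well. In Itm2a, Pdgfrb, Spock2 and Eng every APP/PS1 library lay below every WT library, which adds little for genes picked because they were called. Ly6a was higher, at 8.38, 9.22, 7.07 and 8.61 against 6.72, 6.96, 6.00 and 6.79 (1.70 ± 0.55, adjusted p = 0.0477), a call that was lost when the level filter was dropped (adjusted p = 0.0681) or when any of 7 of the 8 libraries was left out, with adjusted p of 0.0608 to 0.144. The count of 5 came to 3 without WT 12M Ki67+ replicate 2, and to 8 without APP/PS1 4M Ki67+ replicate 3 or either WT 6M Ki67+ library, which enter through the shared estimate of the spread.

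In non-proliferating microglia at 12M, 2 genes were higher in APP/PS1 and 6 lower (background 8.71% and 7.72%), but this comparison rests on the nearly identical WT 12M Ki67- libraries. Flt1 read 8.44, 9.94, 9.41 and 9.57 in APP/PS1 against 7.37, 7.39 and 7.17 in WT, a difference of 2.03 ± 0.48 (adjusted p = 0.00451). Cspg4 read 7.73, 7.65, 6.56 and 8.48 against 5.92, 5.88 and 5.78 (1.75 ± 0.37, adjusted p = 0.0018). The WT values of Cspg4 lay under the bottom of the scale, so the size of this difference can be overstated. Every APP/PS1 library lay above every WT library in both genes, which adds little for genes picked because they were called. Kdr read 7.25, 6.68, 6.83 and 6.78 against 8.55, 8.50 and 8.47 (-1.62 ± 0.32, adjusted p = 0.00111), Slco1c1 read 7.49, 7.33, 7.57 and 8.36 against 9.37, 9.29 and 9.15 (-1.58 ± 0.37, adjusted p = 0.00444), and Mfsd2a read 7.26, 7.11, 6.74 and 7.00 against 8.28, 8.30 and 8.32 (-1.27 ± 0.28, adjusted p = 0.00251). Ramp2, Eng and Pecam1 were lower by -1.13, -0.85 and -0.78. Flt1 and Kdr, both receptors of vascular endothelial growth factor, differed in opposite directions. With the 3 WT libraries counted as 1, 0 genes were called, with 2 higher and 5 lower at an unadjusted p under 0.05 and a lowest adjusted p of 0.0735. Leaving out WT 12M Ki67- replicate 1, 2 or 3 gave 5 genes each time in place of 8. In the same comparison 5 of 8 genes of border-associated macrophages and 4 of 12 astrocyte genes were lower in APP/PS1, while 1 of 5 tested genes of oligodendrocyte precursors was lower and 0 higher.

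**Figure D4:**
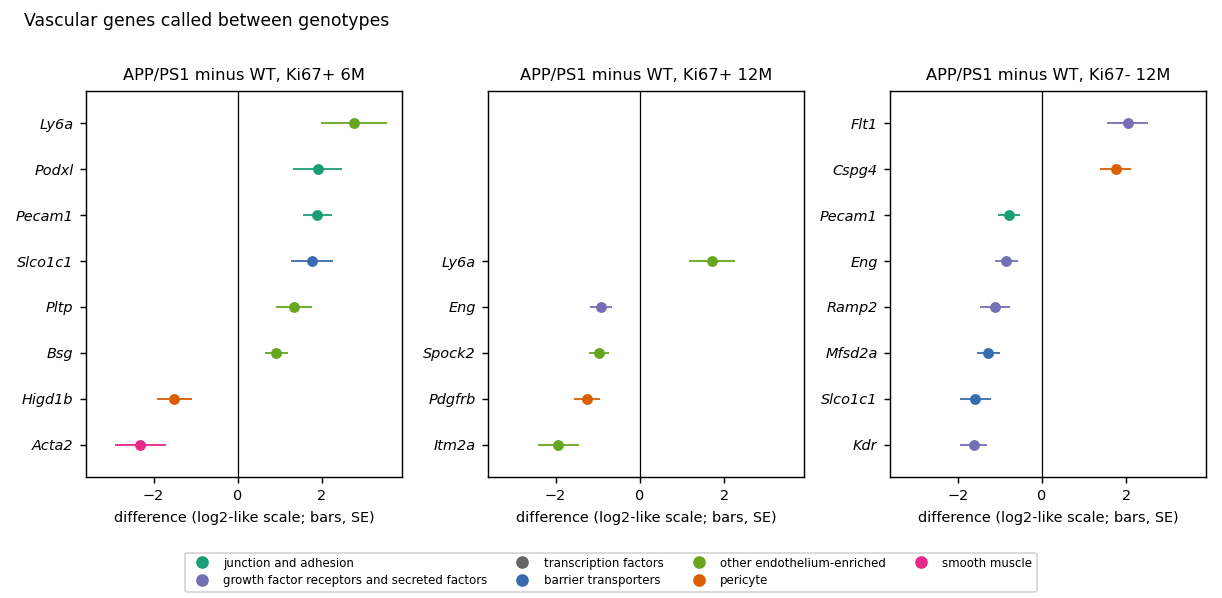
Difference between APP/PS1 and WT libraries on the log2-like scale (x axis; bars, SE) for the vascular genes called at an FDR of 0.05 in Ki67+ libraries at 6M (8 genes), Ki67+ at 12M (5 genes) and Ki67- at 12M (8 genes), coloured by role. Ly6a lies to the right of 0 in both Ki67+ panels, at 2.76 and 1.70, and Eng to the left in both 12M panels, at -0.93 and -0.85; with the nearly identical WT 12M Ki67- libraries counted as 1, none of the 8 genes of the last panel was called.

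The test of whether the genotype difference depended on Ki67 state named 1 gene, Pecam1, at 6M and at 12M. At 6M the interaction was 2.13 ± 0.46 (adjusted p = 0.0121, background 2.33% higher and 0.537% lower), and at 12M it was 1.37 ± 0.36 (adjusted p = 0.0193, 3.55% and 4.46%). In WT the Ki67+ libraries were below the Ki67- libraries in Pecam1 by -2.07 at both ages, and in APP/PS1 the difference was 0.07 ± 0.34 at 6M and -0.70 ± 0.24 at 12M. The 6M interaction was not called without WT 6M Ki67+ replicate 2 (adjusted p = 0.0546) or APP/PS1 6M Ki67+ replicate 1 (0.0649), and the 12M one was not called with near-identical libraries counted as 1 (adjusted p = 0.154). At 4M limma called 0 genes (background 0%), with 1 higher and 4 lower at an unadjusted p under 0.05.

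Between 4 and 12 months few of the vascular genes changed. In WT Ki67+ libraries Sox17 was lower at 12M by -1.07 ± 0.22 (adjusted p = 0.016) and 0 genes were higher (background 0.496% in each direction), a call that was lost without WT 4M Ki67+ replicate 4 or WT 12M Ki67+ replicate 1 or 2. In WT Ki67- libraries Mfsd2a was higher by 1.45 ± 0.27 (adjusted p = 0.00109) and 0 genes were lower (5.61% and 6.6%), at 8.28, 8.30 and 8.32 against 6.81, 6.80, 6.70, 6.73 and 7.22, and with near-identical libraries counted as 1 no gene was called, with 1 higher and 0 lower at an unadjusted p under 0.05. In APP/PS1 Cspg4 was higher at 12M in both states, by 2.03 ± 0.34 in Ki67+ (adjusted p = 0.00086) and by 1.56 ± 0.34 in Ki67- libraries (adjusted p = 0.00662). Its Ki67- values at 4M were 5.69, 5.78, 5.88 and 6.82, all but the last under the bottom of the scale, so the 1.56 can be overstated. Its Ki67+ libraries read 8.98, 8.90, 8.70 and 9.88 at 12M against 6.74, 6.91, 6.97 and 7.72 at 4M. The groups did not overlap, which adds little for a gene picked because it was called. Slco1c1 was lower in both states, by -1.21 ± 0.35 (adjusted p = 0.0382) and -1.46 ± 0.35 (adjusted p = 0.0128). In Ki67+ libraries Itm2a, Pdgfrb and Pltp were lower too, by -1.59, -1.11 and -1.10 (1 higher and 4 lower in all, background 2.8% and 2.61%), and in Ki67- libraries Eng and Kdr, by -1.65 and -1.64 (1 higher and 3 lower in all, 2.6% and 1.51%). The Ki67+ count of 5 came to 1 without APP/PS1 12M Ki67+ replicate 4, and to 2 or 3 without APP/PS1 4M Ki67+ replicate 2, 3 or 4 or APP/PS1 12M Ki67+ replicate 1 or 2. The comparisons by age, genotype and Ki67 state draw on the same libraries, so calls of 1 gene in several of them are not independent.

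Further genes of the same cells, from lists made by cell type and pathway, were called in both directions too. Over all genes tested, 34.5% were higher and 29.7% lower on average. Of 31 further endothelial genes tested, 17 were higher and 4 lower in Ki67+ libraries on average, with a median of 0.33, among them the sphingosine phosphate receptor gene S1pr1 (1.64), Cd34 (1.26) and Rasip1 (1.03) upward and the amino acid transporter gene Slc7a5 (-1.15) and the phosphatase gene Ptprb (-0.53) downward. Of 31 genes of growth factor, angiopoietin, Notch and Wnt signalling, 13 were higher and 10 lower, with a median of 0.21. These counts lie near the shares of all genes tested. They include Id3 (1.86) and Axin2 (0.76) upward and the Wnt co-receptor gene Reck (-2.30) and the receptor gene Notch4 (-1.37) downward. Of 24 further mural genes 14 were higher and 4 lower, with a median of 0.46, among them the myosin kinase gene Mylk (1.87) and the basement membrane gene Col4a2 (1.42) upward and Pdgfb (-1.14), which endothelium secretes to recruit pericytes, and Col4a1 (-0.56) downward. Low in every group were Cnn1 and Lama4 of the mural list and Gja4, Gja5, Clec14a, Selp and Bmx of the endothelial list, which did not reach a mean of 7 anywhere. Among the genes named as higher, Rasip1, Axin2, Mylk and Col4a2 passed the level filter through Ki67+ groups only. So did Notch3, Atp13a5, Pln and S1pr3 of the mural list, while Col4a1 passed through Ki67- groups only. The counts in these lists are thus partly set by the filter.

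Genes of other brain cells moved with Ki67 as well. The shares of all genes tested were 34.5% higher and 29.7% lower on average, and 34.8% and 27.8% without 6M. All 12 astrocyte genes were higher in Ki67+ libraries, with a median difference of 2.18, against 1.12 for the mural genes, and the mean over the astrocyte list ran from 9.04 to 11.06 in Ki67+ and from 7.51 to 8.54 in Ki67- libraries, without overlap. All 7 fibroblast genes tested were higher, with a median of 1.14, and the list mean ran from 6.65 to 7.86 in Ki67+ and from 6.22 to 6.40 in Ki67- libraries, with Col3a1 under 7 in every group. Dcn, Lum, Col1a1, Col1a2, Islr and Slc6a13 had every Ki67- group mean under 7. They passed the level filter through Ki67+ groups only, so the fibroblast count is partly set by the filter. The mean over the 10 mural genes ran from 7.07 to 8.61 in Ki67+ and from 6.39 to 6.87 in Ki67- libraries, also without overlap, and that over the endothelial genes from 6.69 to 8.78 and from 7.23 to 8.23, with overlap. Without 6M the endothelial means ran from 7.81 to 8.78 in Ki67+ and from 7.23 to 8.23 in Ki67- libraries. Oligodendrocytes had 5 higher and 0 lower of 12, with a median of 0.30, but 1 higher and 5 lower without 6M, with a median of -0.51. Of the other lists, oligodendrocyte precursors had 3 higher and 1 lower of 5 (C1ql1, Gpr17 and Lhfpl3 being under 7 in every group), neurons 4 and 4 of 12, ependyma and choroid plexus 3 and 1 of 8, border-associated macrophages 2 and 4 of 8, and peripheral blood cells 2 and 3 of 9 (Cd3e and Cd8a being under 7 in every group). Of 14 microglial genes 0 were higher and 10 lower, with a median of -0.41, where without 6M 1 was higher and 3 lower, with a median of -0.18, and the list mean ran from 12.41 to 13.99 in Ki67+ and from 13.47 to 14.16 in Ki67- libraries. The part of these other cell types' transcripts in the values of the vascular genes was not tested.

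**Figure D5:**
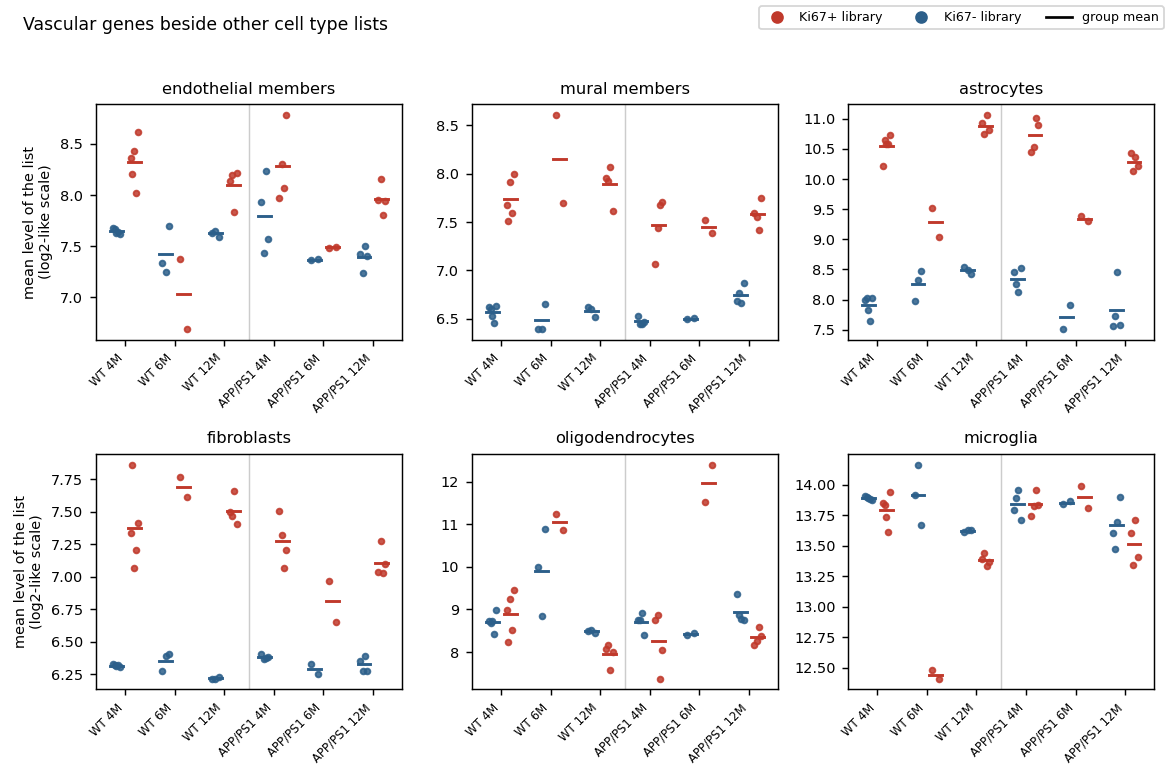
Mean level over each list on the log2-like scale (y axis) in each of the 42 libraries, by genotype and age (x axis), for the endothelial and mural genes of the set and for astrocyte, fibroblast, oligodendrocyte and microglial genes; points are libraries, red Ki67+ and blue Ki67-, and lines are group means. Mural, astrocyte and fibroblast means separate the states without overlap, endothelial means overlap, and in the oligodendrocyte panel the 6M Ki67+ libraries are high (group means 11.05 and 11.96), as is WT 6M Ki67- (9.91, with 1 library at 10.89).

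RefSeq promoter windows, 250 bases before to 50 after each start on GRCm38.p6, were at hand for 26 of the 40 genes. GGAA, searched on both strands, was in a window of 24 of the 26 (92.3%) and in 96% of all 32851 windows, Cldn5 and Slc2a1 being those without it. The longer form CCGGAA was in 2 of 26 (7.69%) against 14.9% of all windows, and ACAAT in 7 of 26 (26.9%) against 31%. The CArG box was in 1 of 26, Myl9 (3.85%), against 1.63% of all windows, and the windows of the 2 other smooth muscle genes were without it or not at hand. CCGGAA overlaps GGAA by its letters, and a gene with several starts was counted once if any of its windows held the motif. None of these shares says whether a factor binds.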

How the data were processed

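RNA was sequenced from sorted Ki67+ and Ki67- microglia in 42 libraries of 12 groups. The authors demultiplexed reads with bcl2fastq 2.20, quantified them with kallisto 0.43.1 on GRCm38, normalised with DESeq2 (version not given), and removed 10 surrogate variables. The deposited values, recorded here as a score, are therefore on a log2-like scale and are not counts, so the count model planned could not be used and read depth is unknown. All columns matched a sample (0 unmatched).

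Group means over 12 groups were fitted to all libraries with limma 3.58.1 in R 4.3.3, after 4241 genes with a mean under 7 in every group were left out and 14910 kept. Removing surrogate variables left 10 directions missing among replicates, so residual degrees of freedom were set to 20 in place of 30 (prior 6.94). P-values were two-sided and adjusted by the Benjamini-Hochberg method over all 14910 genes, with calls at an FDR of 0.05. Differences between Ki67 states were averaged with equal weight over 6 strata. The fit was tested on simulated data. The members and lists were chosen with earlier results of these data known. All members are accounted for by role, and full values are given for those with the lowest p of each role group, for Cdh5 and Vwf, and for those called between genotypes. From other lists at most 3 genes in each direction are named. Whether groups or states overlapped was looked at in the members only, and the share of all genes without overlap was not counted. Alternatives were no level filter, nominal degrees of freedom, subtracting library medians, libraries of 1 age only, leaving out each library, and, added after seeing the data, leaving out 6M strata, comparing 6M with 4M, and counting near-identical libraries (median absolute difference under 0.05) as 1. Gene positions are those of GENCODE M21 (GRCm38), promoter windows are RefSeq on GRCm38.p6, and figures were drawn with matplotlib 3.10.9 in Python 3.11.15.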

Additional observations from a re-analysis of the deposited data

Results flagged for a closer look

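Among the 20 members with full values, 140 groups of 4 to 5 libraries were searched for a library set apart from the rest of its group by Dixon's criterion, which chance meets in about 1 of 20 groups, and 18 were found. In WT 4M Ki67- libraries these were Cldn5 at 6.41, Ets1 at 8.31, Mfsd2a at 7.22, Slco1a4 at 6.37 and Spock2 at 6.43, and 2 of the 5 libraries of that group were nearly identical. In APP/PS1 4M Ki67- libraries they were Pecam1 at 8.68, Cldn5 at 6.31, Cspg4 at 6.82, Vwf at 6.46 and Kdr at 9.43. Of these, Pecam1, Cspg4 and Kdr stood apart in the same library, replicate 4, with Pecam1 low and Cspg4 and Kdr high. In Ki67+ libraries at 4M they were Pecam1 at 7.36 and Higd1b at 8.18 in APP/PS1 and Pdgfrb at 7.02 in WT. At 12M they were Slco1c1 at 8.56 in a WT Ki67+ and at 8.56 in an APP/PS1 Ki67+ library, Kdr at 7.09 in a WT Ki67+, Egfl7 at 7.72 in an APP/PS1 Ki67+ and Slco1a4 at 6.25 in an APP/PS1 Ki67- library.

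The genotype difference in Pecam1 depended on Ki67 state by the test of the interaction, which was 2.13 at 6M and 1.37 at 12M, both on the log2-like scale. The 6M call was lost without WT 6M Ki67+ replicate 2 (adjusted p = 0.0546) or APP/PS1 6M Ki67+ replicate 1 (0.0649), and the 12M call was lost with near-identical libraries counted as 1 (0.154). The cause of these values was not tested.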

How the results depend on the processing

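No paired analysis was possible because the labels give no replicate numbers shared between groups. The average over 6 strata called 25 to 28 members without 1 library each, and kept its count within 1.5 times under every alternative. With nominal degrees of freedom the counts came to 20 for Ki67 in APP/PS1 12M, 1 for genotype in Ki67+ 4M, 15 in Ki67+ 12M and 13 in Ki67- 12M, 5, 4 and 8 for age in WT Ki67+, WT Ki67- and APP/PS1 Ki67-, 5 and 8 for the interaction at 6M and 12M, and 1, 17 and 3 for 6M minus 4M in WT Ki67-, APP/PS1 Ki67+ and APP/PS1 Ki67-. This setting counts the directions removed by the authors as free. Fits to libraries of 1 age gave 22 for Ki67 in APP/PS1 12M, 18 and 14 for genotype in Ki67+ and Ki67- 12M, and 2 and 12 for the interaction at 6M and 12M. With library medians subtracted, age gave 0 in WT Ki67+ and 2 in WT Ki67-, the interaction gave 2 at 12M, and Cdh5 was called on average at -0.24. Without the level filter age gave 3 in APP/PS1 Ki67+. With near-identical libraries counted as 1, Ki67 in WT 12M gave 9, and genotype in Ki67- 12M, age in WT Ki67- and the interaction at 12M gave 0, each from fewer libraries.

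Leaving out 1 library gave 11 to 21 for Ki67 in WT 6M and 0 to 7 in APP/PS1 6M, 1 to 8 for genotype in Ki67+ 6M, 3 to 8 in Ki67+ 12M and 5 to 10 in Ki67- 12M, 0 to 1 for age in WT Ki67+ and 1 to 5 in APP/PS1 Ki67+, 0 to 2 and 1 to 3 for the interaction at 6M and 12M, and 9 to 25 and 2 to 12 for 6M minus 4M in WT and APP/PS1 Ki67+. Where this left a group with 1 library, that library was assumed to vary like the other groups. The average of Flt1, 0.13, ranged from -0.032, without WT 6M Ki67+ replicate 1, to 0.29, and that of Cdh5, -0.13, turned to 0.16 over the 4 strata without 6M and to 0.044 over the 5 without WT 6M, but neither gene was called in these settings. No named value that was called changed direction under the alternatives run. The cause of these changes was not tested, and no counts are at hand to give the depth behind a value near the bottom of the scale.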
